A study of Mus musculus with 6 samples.

Results

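The 36 genes described here encode 4 families of axon guidance proteins with some of their partners: the ephrins and their Eph receptors, and the netrins with the receptors Dcc, neogenin (Neo1) and Unc5a to Unc5d. The netrin-Gs, the repulsive guidance molecules Rgma and Rgmb, and draxin were included with them. They were picked by a rule on gene names among 21286 genes of a table of read counts, and 34 of them had enough reads to be tested. RNA was extracted from dissected LGE tissue of mice at embryonic day 16.5. This region, the lateral ganglionic eminence, lies in the ventral forebrain of the embryo and produces the projection neurons of the striatum as well as olfactory bulb interneurons. The wild type group held 3 libraries from littermates, and the mutant group 3 libraries of genotype Dlx1/2 -/-, which lack a neighbouring pair of homeobox transcription factors. All 6 came from a mixed genetic background of C57BL/6J, 129S6 and CD1. The labels do not say whether a library held 1 embryo or a pool, so the tests measure only the spread among libraries, which may be technical.

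Ephrins are ligands bound to the cell surface. Those of class A hang on a lipid anchor and those of class B span the membrane, and on contact they activate EphA and EphB receptor tyrosine kinases of the neighbouring cell, often so that the cells or growth cones repel each other. Signals can also run backward into the cell that carries the ephrin. Netrin-1 is secreted and attracts axons through Dcc, whereas Unc5 receptors, alone or with Dcc, turn the response to repulsion. In the developing striatum these systems are known for sorting neurons into compartments and for guiding striatal and thalamic axons.

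Levels are given as CPM, the share of a library's counts on a scale common to all libraries, after scaling of the libraries by TMM, a method that assumes that most genes do not differ, and a gene was called when its adjusted p was below 0.05 (edgeR quasi-likelihood test, two-sided, Benjamini-Hochberg adjustment over all 15326 tested genes). Total counts ran from 10711630 to 16588359 per library. The targeted genes were lower in every mutant library, Dlx1 at 831 to 898 CPM in wild type and 109 to 138 CPM in the mutant, and Dlx2 at 419 to 471 and 15.5 to 18.7 CPM. Striatal projection neuron markers fitted the labelled tissue in wild type: the summed level of 14 genes was 2547 to 2695 CPM there and 869 to 949.9 CPM in the mutant. The summed level of 11 radial glia markers was 2438 to 2736 and 3588 to 3621 CPM, and that of 10 markers of pallial glutamatergic neurons, excitatory cells of the cortex, was 29.9 to 84.7 and 171 to 265 CPM. Within the radial glia list 6 of 11 were called higher and 0 lower, or 54.5% called against 24.0% of all tested genes. Ptprz1 alone had means of 619 and 1073 CPM, while Slc1a3 had a lower mean in the mutant and was not called. Within the pallial list, Tbr1 and Eomes had lower means in the mutant and were not called. The 10 ventral hypothalamic markers summed to 322 to 336 and 684 to 743 CPM, and endothelial markers to 205 to 219 and 186 to 192 CPM. Oligodendrocyte lineage markers summed to 78.3 to 113 and 126 to 143 CPM, and those of microglia, meninges and red blood cells to 47.3 to 57.7 and 58.6 to 70.2, 17.7 to 18.6 and 14.1 to 18.4, and 436 to 645 and 584 to 783 CPM. In bulk tissue, fewer cells of a type and less RNA per cell cannot be told apart, and the part of these shifts in the results was not tested.

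Among the guidance genes 11 were higher and 11 lower in the mutant, 22 of 34 tested or 64.7%. Over all tested genes 24.0% were called, 11.2% higher and 12.8% lower. The median size of change was 0.45 on the log2 scale in the guidance genes and 0.19 over all tested genes, while the signed medians were 0.15 and 0.00. Changes of at least 2-fold were called in 5 members, Unc5c, Ntng2 and Unc5a higher and Epha8 and Epha10 lower; over all tested genes 6.88% were called at that size. The mutant and wild type values did not overlap in 24 of the 34, or 70.6%, where 41.9% of all tested genes were apart. In the authors' deposited table, all 22 called members also had p below 0.05, as did 2 members not called here. That p-value comes from the same libraries and is not labelled as adjusted, so the match is no separate check and the thresholds may differ. The 6 called genes with the largest adjusted p were Efna2, Efna3, Epha10, Ephb6, Dcc and Rgma: each lost its call in at least 1 of 10 alternative analyses, whereas the other 16 held theirs in all 10.

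**Figure D1:**
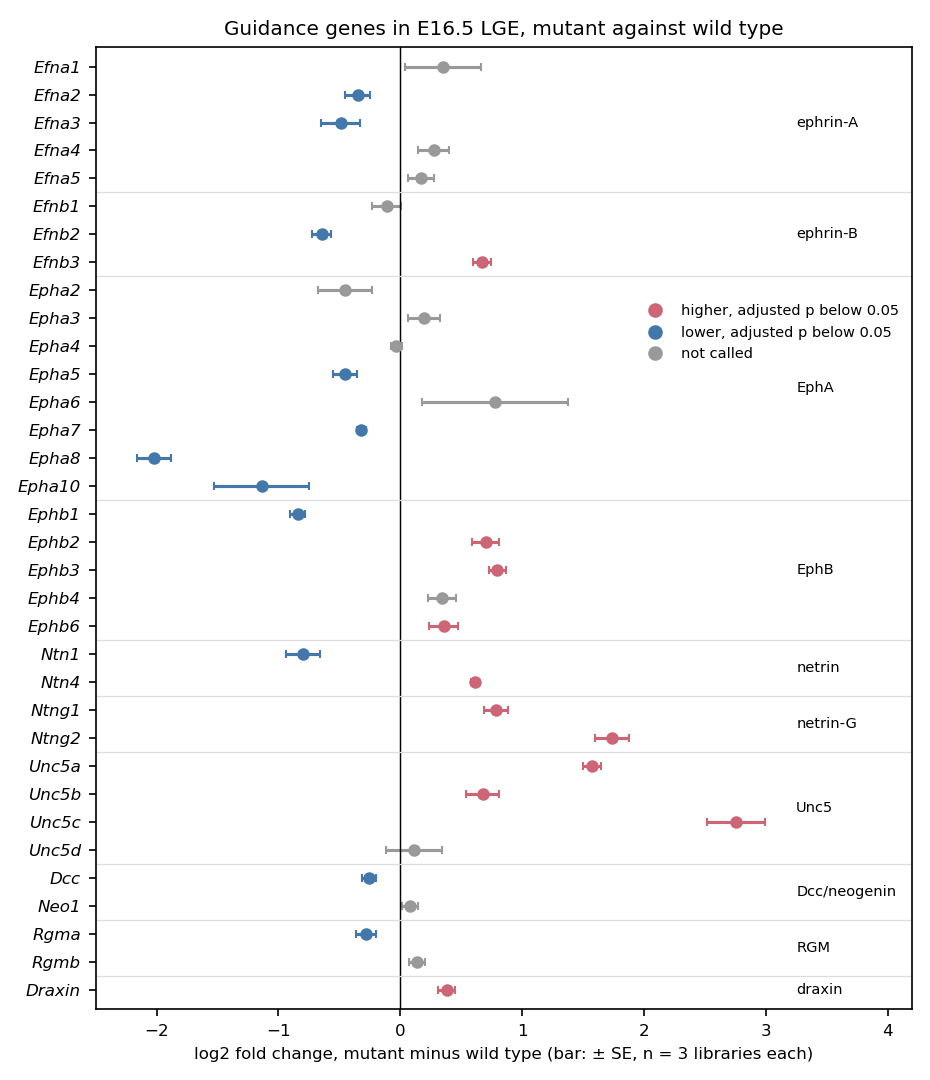
Log2 fold change (x axis, mutant minus wild type, ± SE, 3 libraries per group) of the 34 tested guidance genes, in rows by family. Unc5, netrin-G and most EphB genes lie to the right of 0, the called EphA and ephrin-A genes to the left, and ephrin-B and netrin genes on either side; values run from −2.02 (Epha8) to 2.76 (Unc5c).

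The stretches of DNA just before the transcription start of 6 members are shown because their genes moved and because many homeodomain proteins, those of the Dlx family among them, bind sequences with the core TAATT. They are the 250 bases upstream of the RefSeq start (GRCm38.p6), 5′ to 3′ on the strand of the gene, with TAATT or its reverse complement AATTA in capitals. Epha5 and Epha7 fell and hold the core, Epha8 fell and its neighbour Ephb2 rose, and Unc5a and Unc5b rose. The intervals are chr5:84417383-84417632 (minus strand) for Epha5, chr4:28812881-28813130 (plus) for Epha7, chr4:136956817-136957066 (minus) for Epha8, chr4:136836013-136836262 (minus) for Ephb2, chr13:54949161-54949410 (plus) for Unc5a and chr10:60831582-60831831 (minus) for Unc5b. None of these 6 windows overlaps an exon of GENCODE M21.
Epha5: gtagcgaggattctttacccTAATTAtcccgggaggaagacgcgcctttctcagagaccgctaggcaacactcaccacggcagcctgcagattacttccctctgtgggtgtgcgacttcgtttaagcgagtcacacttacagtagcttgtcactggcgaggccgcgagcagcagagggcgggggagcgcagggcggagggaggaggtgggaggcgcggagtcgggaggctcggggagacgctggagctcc
Epha7: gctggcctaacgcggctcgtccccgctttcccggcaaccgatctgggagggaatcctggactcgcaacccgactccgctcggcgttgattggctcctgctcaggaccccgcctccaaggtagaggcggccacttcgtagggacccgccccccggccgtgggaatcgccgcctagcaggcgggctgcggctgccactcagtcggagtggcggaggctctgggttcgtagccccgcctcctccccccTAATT
Epha8: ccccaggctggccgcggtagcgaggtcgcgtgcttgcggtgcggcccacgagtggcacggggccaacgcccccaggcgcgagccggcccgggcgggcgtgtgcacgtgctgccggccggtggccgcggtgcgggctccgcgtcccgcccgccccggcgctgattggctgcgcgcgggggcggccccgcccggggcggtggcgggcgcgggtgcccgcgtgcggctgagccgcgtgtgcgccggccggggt
Ephb2: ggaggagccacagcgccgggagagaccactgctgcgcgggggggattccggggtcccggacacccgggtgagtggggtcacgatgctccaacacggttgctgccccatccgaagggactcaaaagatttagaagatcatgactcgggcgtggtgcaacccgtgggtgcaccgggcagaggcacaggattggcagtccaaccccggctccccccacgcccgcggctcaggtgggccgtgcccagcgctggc
Unc5a: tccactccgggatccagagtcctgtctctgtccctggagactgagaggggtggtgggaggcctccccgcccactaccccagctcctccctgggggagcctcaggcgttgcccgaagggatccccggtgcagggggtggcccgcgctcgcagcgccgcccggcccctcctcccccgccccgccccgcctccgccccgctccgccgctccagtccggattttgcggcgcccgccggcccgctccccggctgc
Unc5b: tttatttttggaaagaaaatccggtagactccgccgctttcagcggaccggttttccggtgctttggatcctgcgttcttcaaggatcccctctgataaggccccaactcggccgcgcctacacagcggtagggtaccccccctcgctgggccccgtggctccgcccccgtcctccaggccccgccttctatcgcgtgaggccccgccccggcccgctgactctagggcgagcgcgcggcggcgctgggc

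In Epha5 the 6 capitals, TAATTA, hold a pair of overlapping matches 224 bases before the start, and in Epha7 the match ends directly at the start. The other 4 windows hold no match, which says only that these letters are not in them. RefSeq promoters were matched for 31 of the 36 members, with 36 windows in all, and TAATT stood in 7 windows, or 19.4%, of the 6 genes Efna1, Epha5, Epha7, Ephb3, Ephb4 and Ntng1. Among 32851 windows of all genes it stood in 25.0%. The longer form TAATTA, which contains TAATT, stood in 2 member windows (5.56%) and in 4.84% of all windows. The 6 genes with the core comprised 2 that fell, 2 that rose and 2 that were not called.

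Of the 4 Unc5 receptor genes 3 rose and 0 fell, where 11.2% of all tested genes were called higher. Unc5c, a netrin receptor known for repelling axons, was at 4.40, 3.96 and 6.64 CPM in wild type replicates 1 to 3 and at 33.0, 38.2 and 31.6 CPM in the mutant. The lowest mutant value was thus far above the highest wild type value. The log2 fold change of Unc5c was 2.76 ± 0.24 (SE), or 6.76-fold, with an adjusted p = 2.87e-05 (edgeR). This was the largest rise among the guidance genes.

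Unc5a, another netrin receptor of neurons, was at 8.13, 9.23 and 9.42 CPM in wild type and at 27.6, 26.8 and 25.6 CPM in the mutant. The libraries of a group lay close together and the groups far apart, with a log2 fold change of 1.57 ± 0.07 and an adjusted p = 1.58e-05 (edgeR). Unc5b, which endothelial cells carry as well as neurons, rose less, from 16.9, 15.6 and 16.5 CPM to 22.7, 25.0 and 30.8 CPM (log2 fold change 0.68 ± 0.14, adjusted p = 0.00577, edgeR). Mutant replicate 3 was the highest of these, and the groups did not overlap. Unc5d was at 21.1, 30.1 and 29.2 CPM and at 34.4, 29.7 and 23.3 CPM, overlapping groups with a log2 fold change of 0.12 ± 0.23 and an adjusted p = 0.681 (edgeR). Its sign turned when wild type replicate 1 or mutant replicate 1 was left out.

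The make-up of the Unc5 family therefore differed between genotypes. Genes can be set side by side only per length, for which the FPKM values deposited by the authors were used. Unc5d exceeded Unc5a in every wild type library, with 2.31, 3.36 and 3.26 against 1.54, 1.79 and 1.83 FPKM. In every mutant library Unc5a exceeded Unc5d, with 5.44, 5.25 and 4.98 against 3.91, 3.36 and 2.62 FPKM. Unc5c made up 2.75 ± 0.67% of the summed FPKM of the 4 genes in wild type and 10.2 ± 0.98% in the mutant (SD, n = 3). The sum itself was 6.86, 7.98 and 8.20 FPKM in wild type and 14.7, 14.6 and 14.2 FPKM in the mutant. It was higher in every mutant library than in any wild type library; as a sum over chosen genes it was not tested.

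Netrin-1 and its receptor Dcc fell. Ntn1, the secreted guidance cue netrin-1, was at 131, 137 and 159 CPM in wild type and at 73.6, 76.9 and 94.6 CPM in the mutant. The groups were apart, with a log2 fold change of −0.80 ± 0.14 and an adjusted p = 0.00144 (edgeR). Dcc, the receptor through which netrin-1 attracts axons, went from 84.0, 80.8 and 90.2 CPM to 68.7, 70.0 and 74.7 CPM. That is a small fall without overlap (log2 fold change −0.26 ± 0.06, adjusted p = 0.0251, edgeR), and the call ended without wild type replicate 3, mutant replicate 1 or mutant replicate 2, with adjusted p of 0.0798 to 0.0876 (edgeR). Neo1, the relative of Dcc that also binds repulsive guidance molecules, was at 185 to 196 CPM in wild type and 189 to 219 CPM in the mutant and was not called. Per length, Unc5c was 0.021 to 0.031 times the level of Dcc in wild type and 0.181 to 0.233 times in the mutant. With GENCODE M21 exon lengths these ratios were 0.034 to 0.051 and 0.291 to 0.375.

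Ntn4, a netrin of basement membranes with a laminin-like make-up, rose. It was at 25.6, 26.2 and 26.1 CPM in wild type and at 38.3, 41.0 and 40.0 CPM in the mutant, a narrow spread around a log2 fold change of 0.61 ± 0.03 (adjusted p = 4.14e-04, edgeR). Because Ntn1 fell and Ntn4 rose, the FPKM ratio of Ntn4 to Ntn1 was 0.273 to 0.325 in wild type and 0.704 to 0.887 in the mutant. Ntn1 stayed the higher of the pair in every library. Ntn5 had 2 reads in 1 wild type library and 0 in the others, below the filter. Ntn4 is also made by vascular cells, and the sum of 7 mural cell markers was 258 to 269.6 CPM in wild type and 317 to 331 CPM in the mutant, but the markers did not move together: Pdgfrb and Notch3 were higher, Abcc9 was lower, and the uncalled Rgs5, Kcnj8 and Vtn had log2 differences of −0.19, −0.51 and −0.25. The median over the 6 tested markers was −0.22, and the part of these markers in the Ntn4 result was not tested.

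The netrin-G genes, which encode membrane-anchored relatives of netrins that bind synaptic adhesion proteins instead of Dcc, were higher, 2 of 2. Among all tested genes 11.2% were called higher. Ntng2 was at 5.74, 6.82 and 6.82 CPM in wild type and at 25.3, 19.8 and 20.0 CPM in the mutant, a 3.34-fold rise (log2 fold change 1.74 ± 0.14, adjusted p = 6.36e-05, edgeR). Of its exon bases 14.0% are shared with 6530402F18Rik on the same strand, so reads there cannot be assigned to either gene with certainty. Ntng1 was at 4.02, 4.29 and 3.92 CPM and at 7.44, 7.47 and 6.16 CPM, without overlap (log2 fold change 0.78 ± 0.10, adjusted p = 0.00617, edgeR). Netrin-Gs are known from glutamatergic neurons. Of 9 tested pallial glutamatergic markers, 6 were higher in the mutant, among them Neurod2 and Neurod6, and 0 lower. That is 66.7% called, against 24.0% of all tested genes. Tbr1 had means of 12.6 and 6.91 CPM, and Eomes of 8.62 and 4.34 CPM, and neither was called. The part of these markers in the rise of the netrin-Gs was not tested.

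**Figure D2:**
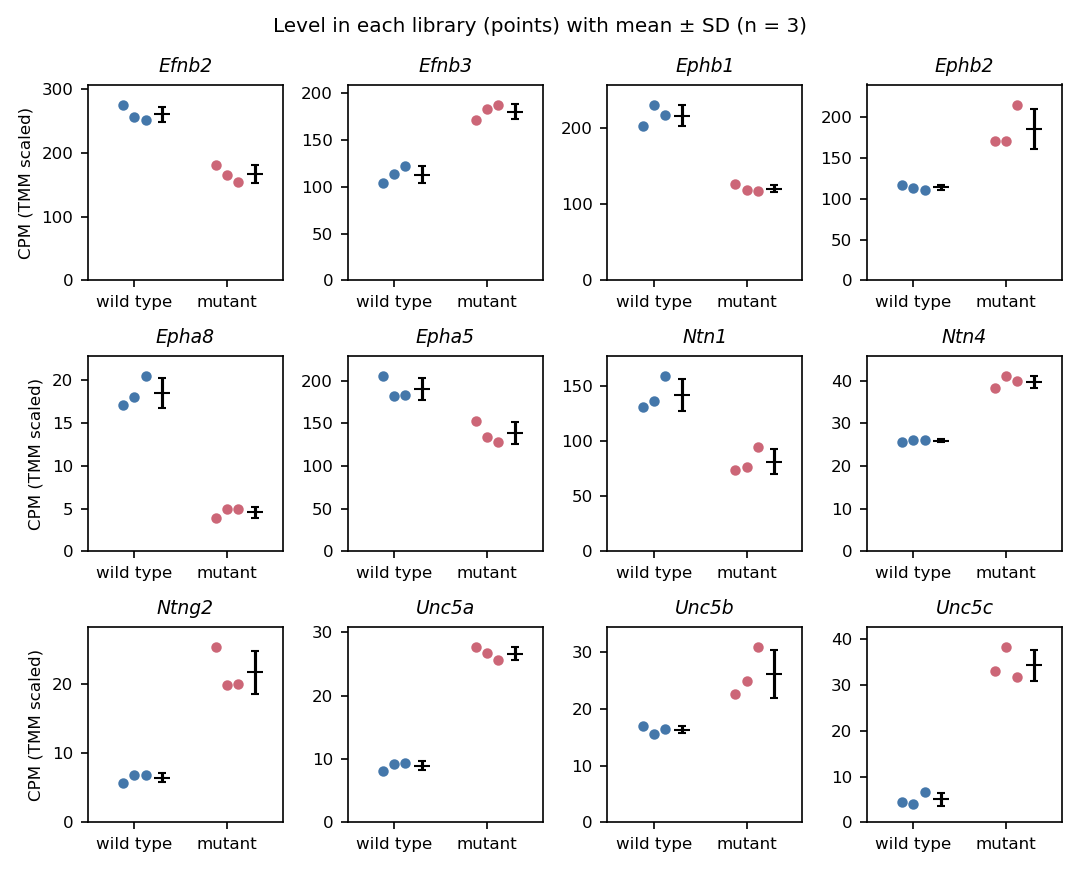
CPM (y axis, from 0) of 12 called guidance genes in each of 3 wild type (blue) and 3 mutant (red) libraries, with the group mean ± SD in black. In each of the 12 panels the groups are apart; Unc5c goes from 3.96 to 6.64 CPM in wild type to 31.6 to 38.2 CPM in the mutant, and Epha8 from 17.0 to 20.4 down to 3.84 to 4.94 CPM.

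Over all tested genes 12.8% were called lower and 11.2% higher. Of 8 tested EphA genes 4 fell and 0 rose, and of 5 EphB genes 3 rose and 1 fell. A difference between the classes was not tested, and each count holds a call that was lost in most alternatives, Epha10 in 6 and Ephb6 in 7 of 10.

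Epha8, a receptor known from the midbrain visual system, had the deepest fall of all guidance genes. It was at 17.0, 18.0 and 20.4 CPM in wild type and at 3.84, 4.94 and 4.91 CPM in the mutant. Every mutant value was under every wild type value by a wide margin, with a log2 fold change of −2.02 ± 0.14, or 4.06-fold lower, and an adjusted p = 2.81e-05 (edgeR). Epha5, a receptor with high affinity for ephrin-A ligands, fell from 205, 182 and 183 CPM to 153, 135 and 128 CPM (log2 fold change −0.45 ± 0.10, adjusted p = 0.00478, edgeR). Epha7 fell from 70.3, 71.3 and 75.1 CPM to 56.1, 58.9 and 58.7 CPM, a small shift with little spread (log2 fold change −0.32 ± 0.04, adjusted p = 0.00600, edgeR). Neither pair of groups overlapped.

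Epha10, which encodes a receptor with an inactive kinase domain, was rare at 2.20, 2.79 and 4.71 CPM in wild type and 1.83, 1.58 and 1.07 CPM in the mutant. Its log2 fold change was −1.14 ± 0.39 with an adjusted p = 0.0437 (edgeR), a call that ended when any library but wild type replicate 1 was left out; without wild type replicate 3 the value was −0.75. The most abundant EphA gene, Epha4, a receptor that binds ephrins of either class, was at 614, 572 and 587 CPM in wild type and 553, 595 and 586 CPM in the mutant. Those groups overlapped and the difference was −0.03 ± 0.04 on the log2 scale (adjusted p = 0.710, edgeR). Epha4 made up 51.6 ± 1.4% of the EphA FPKM in wild type and 52.9 ± 1.6% in the mutant (SD, n = 3).

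Epha3 was at 165, 126 and 128 CPM and at 163, 162 and 153 CPM and was not called (adjusted p = 0.222, edgeR); without wild type replicate 1, the highest library, it was called higher (log2 fold change 0.32, adjusted p = 0.00543, edgeR). Epha2, a receptor of epithelia and progenitors, and Epha6 were under 4 CPM in every library and were not called. The mutant values of Epha6 lay above all wild type values, but wild type replicate 1 was as low as 0.478 CPM beside 1.56 and 1.99 CPM in the other 2. Epha1 had 3, 3 and 5 reads in wild type and 2, 1 and 2 in the mutant and was not tested.

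The EphB receptors changed in opposite directions. Ephb1, which guides axons of retina and forebrain, fell from 203, 230.2 and 217 CPM to 126, 119 and 117 CPM. The groups were well apart (log2 fold change −0.84 ± 0.06, adjusted p = 4.00e-05, edgeR). Ephb2, a receptor of axons and excitatory synapses, rose from 117, 113 and 111 CPM to 171, 171 and 214 CPM, with mutant replicate 3 the highest (log2 fold change 0.70 ± 0.11, adjusted p = 0.00100, edgeR). Ephb3 rose from 17.1, 17.3 and 19.6 CPM to 30.8, 30.5 and 32.6 CPM (log2 fold change 0.80 ± 0.07, adjusted p = 3.96e-04, edgeR). All mutant values of Ephb2 and Ephb3 exceeded all wild type values.

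Ephb6, whose kinase domain is inactive, was at 26.1, 33.5 and 31.0 CPM and at 39.3, 41.2 and 35.8 CPM, called by a narrow margin (log2 fold change 0.36 ± 0.12, adjusted p = 0.0428, edgeR). Its call ended without any library except wild type replicate 2, and with no filter on low counts. Ephb4, known as the receptor of venous endothelium, just missed the threshold at 25.8, 19.9 and 23.6 CPM against 28.0, 29.0 and 30.6 CPM (log2 fold change 0.34 ± 0.12, adjusted p = 0.0502, edgeR). DESeq2 called it higher (adjusted p = 0.0434), as did edgeR without wild type replicate 1 (adjusted p = 0.0276). Of 10 endothelial markers 2 were lower, Flt1 and Slco1c1, and 0 higher, or 20.0% against 24.0% of all tested genes. Their part in the Ephb4 result was not tested.

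Within the family Ephb1 held 62.0 ± 1.1% of the EphB FPKM in wild type and 38.3 ± 2.0% in the mutant, and Ephb2 14.9 ± 1.1% and 26.8 ± 3.1% (SD, n = 3). Ephb1 nevertheless remained the higher by FPKM in all 6 libraries, the ratio of Ephb2 to Ephb1 being 0.225 to 0.265 in wild type and 0.619 to 0.836 in the mutant. With GENCODE M21 exon lengths that ratio reached 1.02 in mutant replicate 3. The summed FPKM of the 5 EphB genes was 41.3, 46.4 and 44.8 in wild type and 40.5, 39.9 and 41.1 in the mutant. The make-up thus shifted far more than the total. By deposited FPKM the total lay slightly lower in every mutant library, with nearest values of 41.3 in wild type and 41.1 in the mutant. That order rests on the lengths behind the FPKM and may not hold with other lengths.

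Of the 3 ephrin-B ligands 1 rose and 1 fell, where 24.0% of all tested genes were called. Efnb2, the ephrin of arteries and of many neural progenitors, was at 274, 256 and 251 CPM in wild type and at 181, 164 and 154 CPM in the mutant. It fell without overlap (log2 fold change −0.64 ± 0.08, adjusted p = 3.39e-04, edgeR). Efnb3, the ephrin-B best known as a midline barrier to corticospinal axons, rose from 104, 113 and 122 CPM to 171, 182 and 187 CPM, also without overlap (log2 fold change 0.67 ± 0.08, adjusted p = 2.83e-04, edgeR). Efnb1 was at 165 to 199.6 CPM and 147 to 178 CPM and was not called (adjusted p = 0.439, edgeR).

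Per length, Efnb2 was at 55.0, 52.5 and 51.6 FPKM in wild type, the highest mean FPKM of the 36 genes as deposited, and at 37.8, 34.1 and 31.6 FPKM in the mutant, the fifth. Efnb3 was at 31.8, 35.4 and 38.3 FPKM and at 54.4, 57.8 and 58.6 FPKM, going from the fifth to the first place by deposited FPKM. The neighbours in the wild type order, Efnb2, Efnb1, Epha4 and Rgmb, had means of 53.0 ± 1.8, 49.5 ± 4.5, 46.8 ± 1.1 and 46.0 ± 3.4 FPKM (SD, n = 3), so the spreads of neighbours overlap. The sum of the 3 ephrin-B genes was 141, 134 and 138 FPKM in wild type and 134, 142 and 138 FPKM in the mutant, overlapping groups. The order between genes rests on the lengths behind the FPKM. With the exon length of GENCODE M21 in their place, the ratio of Efnb3 to Efnb2 was 0.816 to 1.05 in wild type and 2.03 to 2.61 in the mutant, so that the pair was near parity in wild type. The first places also rest on the lengths behind the FPKM: with GENCODE M21 lengths Epha4 came first in either genotype, at 72.7 in wild type and 72.2 in the mutant on the FPKM scale. Efnb2 then had 37.6 and 24.5, the third and the fifth place, and Efnb3 35.2 and 56.9, the fourth and the second.

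**Figure D3:**
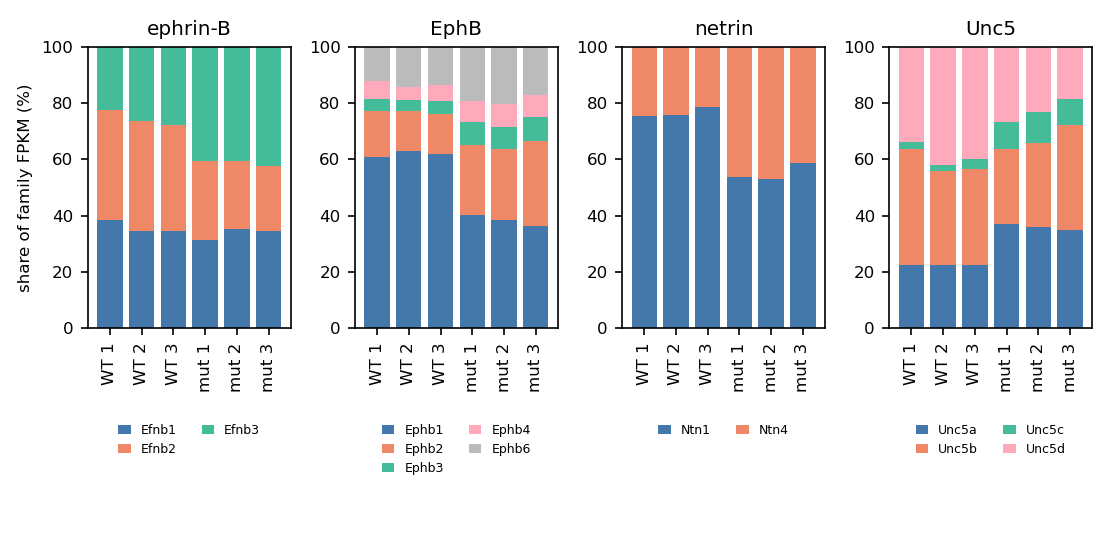
Share of each gene in the summed FPKM of its family (y axis, percent) in each of 3 wild type (WT) and 3 mutant (mut) libraries; Ntn5, at 0 in all but 1 library, is left out. Efnb3 takes a larger and Efnb2 a smaller share in every mutant library, Ephb1 drops from 62.0% to 38.3% on average, Ntn4 grows from 23.4% to 44.9%, Unc5a and Unc5c take larger shares and Unc5d a smaller one in every mutant library.

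Of the 5 ephrin-A ligands 2 fell and 0 rose, with a median size of change of 0.35 on the log2 scale. Among all tested genes 12.8% were called lower, and the median size was 0.19. Efna2, which per length made up 67.0 ± 4.2% of ephrin-A FPKM in wild type, was at 67.5, 56.6 and 57.0 CPM there and at 44.3, 46.1 and 51.5 CPM in the mutant (log2 fold change −0.35 ± 0.11, adjusted p = 0.0294, edgeR). The call ended without wild type replicate 1, mutant replicate 1 or mutant replicate 2. Efna3 was at 7.75, 10.4 and 10.7 CPM and at 6.34, 7.34 and 7.04 CPM, at the edge of the threshold (log2 fold change −0.49 ± 0.16, adjusted p = 0.0498, edgeR). It lost the call in 9 of 10 alternatives, with an adjusted p of up to 0.149 (edgeR). Efna5, a repellent of the ephrin-A class found in many projection systems, Efna4 and Efna1 had log2 differences of 0.17, 0.27 and 0.35 with overlapping groups and were not called.

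Some members are neighbours in the genome, and a link between position and direction was not tested. Efna1, Efna3 and Efna4 lie side by side on the minus strand of chromosome 3 (GRCm38), with 32756 and 10424 bases between neighbours and no other protein-coding gene between them. The middle one, Efna3, was the only one of the 3 that was called, and it lost the call in 9 of 10 alternatives. On chromosome 4, Ephb2 (136647539 to 136835988, minus strand) and Epha8 (136929419 to 136956816, minus strand) are 93430 bases apart, with the complement genes C1qa, C1qb and C1qc between them. Ephb2 was 1.63-fold higher and Epha8 4.06-fold lower in the mutant. For Efna3, 14.1% of exon bases overlap an antisense gene, Gm15998, and the use of strand in counting was not stated in the labels.

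Of the ligands of neogenin, Rgma was at 147, 152 and 171 CPM in wild type and at 127, 122 and 138 CPM in the mutant, a fall of 0.28 ± 0.08 on the log2 scale (adjusted p = 0.0272, edgeR). The groups were apart, and the call ended without wild type replicate 2, wild type replicate 3, mutant replicate 1 or mutant replicate 2. Rgmb, which also acts as a coreceptor of bone morphogenetic proteins, was at 115 to 131 CPM and 130.1 to 142 CPM and was not called (adjusted p = 0.159, edgeR). Draxin, a secreted repellent that binds Dcc and netrin-1, rose from 115, 133 and 122 CPM to 166, 163 and 153 CPM (log2 fold change 0.38 ± 0.07, adjusted p = 0.00403, edgeR). Its groups did not overlap.

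Genes that act with these ligands and receptors were read from 3 lists set by known function. In the list of Eph and ephrin signalling partners 3 of 24 rose and 5 fell, 33.3% against 24.0% of all tested genes. Ngef, the exchange factor ephexin through which EphA receptors collapse growth cones, fell the most, from 38.6, 53.3 and 45.4 CPM to 8.35, 6.45 and 6.10 CPM (log2 fold change −2.72 ± 0.19, adjusted p = 1.57e-05, edgeR). Chn1, the Rac inhibitor α-chimaerin that works below Epha4, fell by 0.58 ± 0.05 on the log2 scale, and the exchange factor gene Vav3 fell by 0.73. Anks1, an adaptor of Eph receptors, and Sipa1l1, a Rap inhibitor, rose by 0.37 and 0.27. Without mutant replicate 1 the number called in this list was 5 rather than 8. Nck1, Nck2, Fyn and Src, shared signalling proteins, were not called.

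In the list of netrin receptor partners 4 of 23 rose and 10 fell, or 60.9% against 24.0% of all tested genes. Myo10, an unconventional myosin that carries Dcc in filopodia, rose from 143, 120.5 and 125 CPM to 297, 289 and 306 CPM (log2 fold change 1.20 ± 0.08, adjusted p = 1.27e-05, edgeR). Ablim3 and Ablim1, actin-binding LIM proteins, fell by 1.53 and 0.90 on the log2 scale. Siah2, a ubiquitin ligase, and Dapk1, the death-associated kinase that binds Unc5 receptors, fell by 0.86 and 0.30. At an adjusted p below 0.01, 6 genes of this list were called, and 1991 of all 15326 tested genes.

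In the list of partners of Unc5, netrin-G and neogenin 4 of 16 tested genes rose and 3 fell, or 43.8% against 24.0% of all tested genes. Flrt2, a membrane protein that repels cells bearing Unc5 receptors, fell from 382, 314 and 303 CPM to 89.2, 77.7 and 73.3 CPM (log2 fold change −2.06 ± 0.13, adjusted p = 8.05e-06, edgeR). Its relative Flrt3 rose from 61.4, 61.1 and 62.8 CPM to 78.4, 73.1 and 84.6 CPM (log2 fold change 0.35 ± 0.06, adjusted p = 0.00793, edgeR). The latrophilin genes Adgrl2 and Adgrl3, whose products bind Flrt proteins, rose by 0.68 and 0.60 on the log2 scale. The most abundant latrophilin gene, Adgrl1, fell from 645, 548 and 555 CPM to 489.6, 476 and 504 CPM (log2 fold change −0.25 ± 0.08, adjusted p = 0.0369, edgeR). Cbln4, a cerebellin that binds Dcc, rose from 1.63, 2.14 and 2.78 CPM to 6.89, 7.02 and 7.86 CPM (log2 fold change 1.70 ± 0.22, adjusted p = 6.03e-04, edgeR). Thus 3 of 4 Unc5 receptor genes rose while a known ligand, Flrt2, fell, and another, Flrt3, rose.

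**Figure D4:**
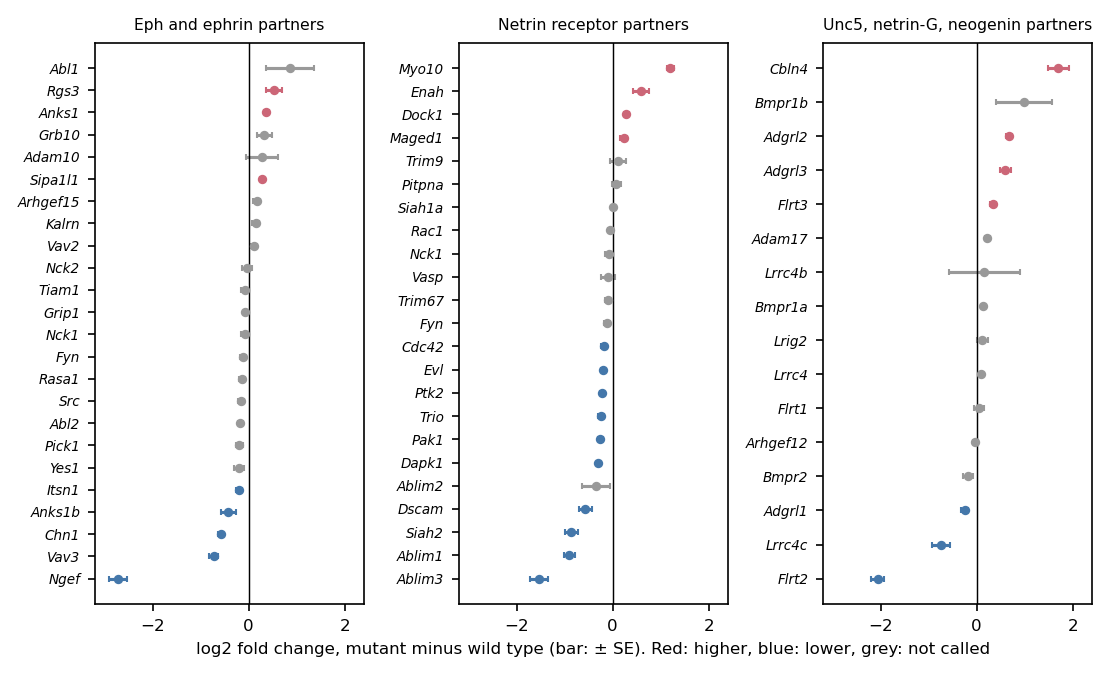
Log2 fold change (x axis, mutant minus wild type, ± SE) of the tested genes in 3 lists of signalling partners, one gene per row in order of the change. Called genes are red (higher) or blue (lower); Ngef (−2.72), Flrt2 (−2.06) and Ablim3 (−1.53) are farthest to the left, and Cbln4 (1.70) and Myo10 (1.20) farthest to the right.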

How the data were processed

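The deposited table gives, per the file headers, read counts, FPKM values and a p-value per gene that the authors deposited without naming its test. Among the tools and builds listed, without roles, in the submitters' processing notes are HISAT2 2.0.4, StringTie 1.3.0, edgeR, GRCm38.p4 and mm10. Neither the annotation release nor the use of strand is stated there. The counts of 21286 genes were tested in edgeR 4.0.16 under R 4.3.3: filterByExpr by group left 15326 genes, then TMM, glmQLFit and glmQLFTest with Benjamini-Hochberg adjustment. SEs are of log2 CPM with 0.5 added to each count. The lengths implied by the FPKM were 0.343 to 2.05 times the GENCODE M21 exon length of the members, so orders between genes rest on them. Chi-square per degree of freedom between replicates was 7.15 to 14.3, above sampling noise. A floor of 3 counts was 0.181 to 0.287 CPM. On simulated counts for 15326 genes, 198 of 200 genes changed 2-fold were recovered, with 7 false calls. The changed genes were drawn above a minimum level, and all genes had the same dispersion, the spread between libraries beyond sampling noise. Smaller changes, and changes in rarer genes, were not simulated, while only 5 of the 22 called members changed at least 2-fold.

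The members, lists and tests were chosen with earlier results of these data known. All members could be named, with the 5 partners of smallest adjusted p per list and markers of the fixed lists; Adgrl1 and the uncalled Nck1, Nck2, Fyn and Src were named after their values were seen. The alternatives were RLE scaling, no filter, DESeq2 1.42.0, a replicate block, each library left out, and adjusted p below 0.01. Column names share a prefix within each genotype; genotype and any batch those prefixes mark cannot be told apart. Ratios and orders with exon lengths of GENCODE M21 were added after seeing the data.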

Additional observations from a re-analysis of the deposited data

How the results depend on the processing

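Of the 22 called guidance genes 16 kept their call and direction under RLE scaling, no filter, DESeq2, the replicate block and each library left out, and those 16 also passed at an adjusted p below 0.01. The number of guidance genes called was 21 with RLE scaling, 20 without the filter, 22 with DESeq2 (21 of the original 22, plus Ephb4) and 16 to 22 with a library left out. The 22 called without wild type replicate 1 held 20 of the original 22, plus Epha3 and Ephb4. Unc5d, not called, changed sign without wild type replicate 1 (−0.028) and without mutant replicate 1 (−0.021); with a library left out its values ran from −0.028 to 0.25. At an adjusted p below 0.01 the calls were 1991 of all genes, 5 of the Eph and ephrin partners and 6 of the netrin receptor partners, by construction fewer. With a library left out, the Eph and ephrin partners had 5 to 8 calls; the cause was not tested. The log2 ratio of mean FPKM lay within the spread of the fitted value in 34 of 34 members. As FPKM are the same counts divided by gene length and library total, this was nearly fixed beforehand and is no separate check. The replicate numbers do not pair the libraries: deviations of same-numbered libraries correlated at −0.178 to 0.039. With the replicate block 18 members and 2681 genes were called; Efna2, Efna3, Epha10 and Ephb6 lost their calls. Depth limits what can be said of Epha1 and Ntn5, at or near the floor.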
